A study of Mus musculus with 3 samples.

Results

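Aminoacyl-tRNA synthetases are the enzymes that join each amino acid to its transfer RNA. Of the 31053 genes in the deposited matrices, 35 synthetase genes were matched by symbol and all 35 were found. They comprise 20 genes for cytosolic enzymes and 15 genes, with symbols ending in 2, for mitochondrial enzymes. The material was sensory epithelium from cochlear explants of 4 to 6 week old mice. All cultures, Control included, carried rtTA/tet-on-Myc/tet-on-NICD, a set of transgenes in which the reverse tetracycline transactivator switches on the growth regulator MYC and the active intracellular part of NOTCH1 once doxycycline (Dox) is present. There were 2 Dox libraries, replicate 1 and replicate 2, exposed to 2 μg/ml Dox for 4 days, and 1 Control library that received sterile water. Each library held the cells of 4 cultures. The sources used here do not name the promoter or cell type that drives rtTA. No library without the transgenes received Dox, so effects of the drug and of the transgenes cannot be told apart.

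Cells hold a cytosolic and a mitochondrial protein-making system, and each needs charged transfer RNAs. Most amino acids have a separate nuclear gene for each compartment, while Kars (lysine) and Gars (glycine) supply the enzyme of both compartments from a single gene. Several cytosolic enzymes sit together in the multisynthetase complex, held by scaffold proteins that include Aimp1, Aimp2 and Eef1e1. MYC is known for raising genes of ribosome assembly and translation, and ATF4, the transcription factor of the amino acid response, is known for raising a subset of the cytosolic synthetases. Mutations of LARS2 and HARS2 in humans cause Perrault syndrome, in which hearing is lost.

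The 3 libraries differed in depth and cell makeup. The Dox libraries gave 636 and 997 kept cells with medians of 16725 and 27579 UMIs (unique molecular identifiers, each marking 1 captured RNA molecule), against 363 kept cells with a median of 6887 UMIs in Control. Before filtering, 101 of 788 and 92 of 1095 barcodes of the Dox libraries also occurred in another library, against 125 of 512 in Control. They were not removed for being shared, and their part in the results was not tested. Cells with little of the nuclear RNA Malat1 made up 34.6% and 17.1% of the Dox cells, against 21.5% of the Control cells. Counts were summed per library over all kept cells and over 5 classes of clusters named or grouped by their markers. The supporting cell-like cluster is also counted inside the epithelial class. The transgene readouts followed the labels in all kept cells: Notch1, whose transcript the NICD transgene shares in part, had 456 and 354 CPM in the Dox libraries, against 38.1 CPM in Control, and Myc had 64.4 and 57.2 CPM in Dox, against 33.0 CPM in Control. In the labelled sensory epithelium, supporting cell-like cells numbered 57 and 29 in the Dox libraries, against 31 in Control, and most kept cells belonged to other epithelial, stromal, glial or immune clusters. Beyond the pooling of cultures the labels describe no separate animals, so p-values measure the spread between 2 libraries, which may be technical, with 1 residual degree of freedom. The lone Control library is assumed to vary as the Dox libraries do.

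Summed over all kept cells, cytosolic synthetase RNA was higher in Dox. The 20 cytosolic genes together had 1668 and 1839 CPM (UMI counts on a scale of 1000000 per library, after TMM scaling, which takes most genes as unchanged) in the Dox libraries, against 1182 CPM in Control. Both Dox libraries lay above Control for 33 of the 35 genes and both lay below it for 1, Lars2, while Aars overlapped. The share of all genes placed so was not counted, so this placement only describes the members. With edgeR's quasi-likelihood test, adjusted by the Benjamini-Hochberg method over all genes and called where the adjusted p was at most 0.05, 5 of 35 members rose (14.3%) and none fell. Of all 15426 genes tested, 17.2% were called, 9.35% as higher and 7.82% as lower, so the share of members called was near that of genes at large. The median log2 fold change was 0.50 over the cytosolic and 0.75 over the mitochondrial genes, against -0.01 over all genes tested. The 5 that rose were Eprs, Farsa, Kars, Qars and Vars, all cytosolic. No mitochondrial gene was called by edgeR, and 10 of 15 had an unadjusted p under 0.05, beside 5814 of the 15426 genes tested. DESeq2 called Yars2 among the mitochondrial genes, and its share of all genes called is not given here.

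**Figure D1:**
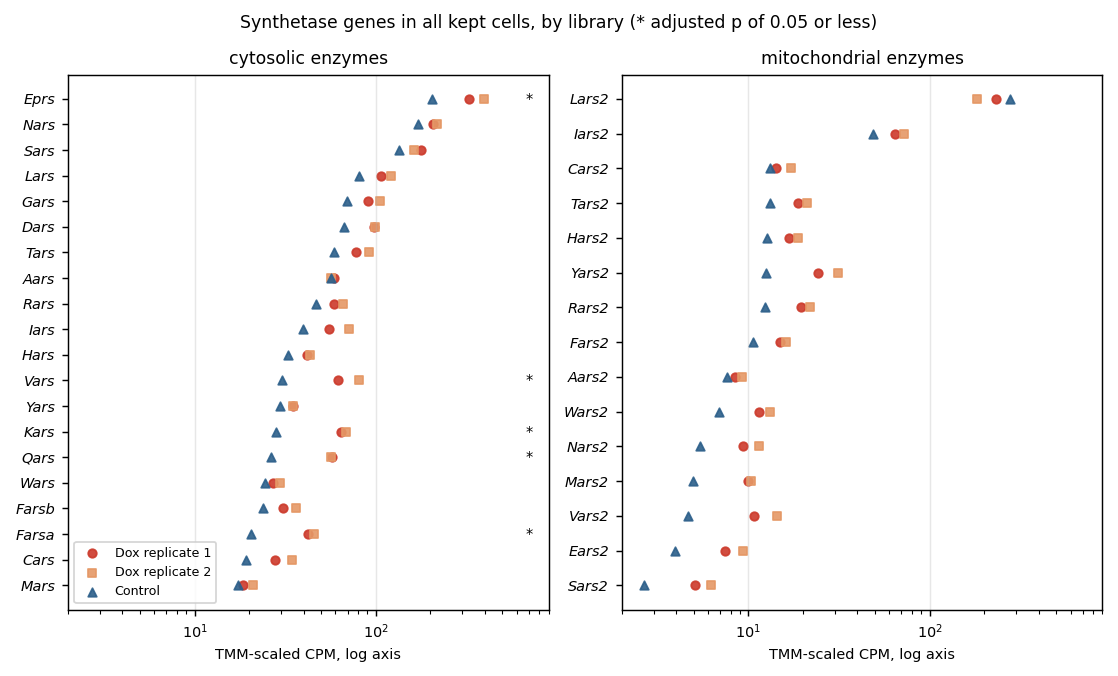
Each point is the TMM-scaled CPM (log axis) of a synthetase gene in all kept cells of Dox replicate 1, Dox replicate 2 or Control, with cytosolic enzymes left, mitochondrial enzymes right and asterisks at called genes. Both Dox points lie to the right of Control in 33 of 35 rows, Aars overlaps and Lars2 runs the other way. The share of all genes placed so was not counted. With total counts 16 of 20 cytosolic and 12 of 15 mitochondrial changes are positive.

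Sums over all kept cells mix the makeup of each library with the level per cell, so more cells of a type and more RNA per cell cannot be told apart. Scaled to total counts instead of TMM, the median of all genes in all kept cells shifted to -0.30, the cytosolic median to 0.21 and the mitochondrial median to 0.45, so both sets still lay above the median gene. Under that scaling 16 of 20 cytosolic genes had a positive change, Aars had a negative one, and Farsa, Kars and Qars were called, while Vars missed the threshold (adjusted p = 0.062, edgeR). Of the genes called among all genes, 54.5% were higher in Dox with TMM and 30.3% with total counts. The unscaled cytosolic sum was 1577 and 1698 CPM in Dox, against 1352 CPM in Control.

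Promoter sequence is shown for 5 genes that differ in the E-box CACGTG, a site bound by MYC with its partner MAX, and in TGATGNAA, the core of sites bound by ATF4 with C/EBP partners. The lines give 150 bases upstream of the RefSeq start, 5′ to 3′ on the gene's strand, in build GRCm38.p6, with either motif, read on both strands, in capitals. They lie at chr13:49681980-49682129 (+ strand) for Iars, chr6:55037851-55038000 (+) for Gars, chr8:111033692-111033841 (+) for Aars, chr8:112011355-112011504 (- strand) for Kars and chr1:185362894-185363043 (+) for Eprs.
Iars: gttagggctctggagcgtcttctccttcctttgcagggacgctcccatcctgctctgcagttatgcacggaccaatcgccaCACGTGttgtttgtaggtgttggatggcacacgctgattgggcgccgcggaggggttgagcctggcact
Gars: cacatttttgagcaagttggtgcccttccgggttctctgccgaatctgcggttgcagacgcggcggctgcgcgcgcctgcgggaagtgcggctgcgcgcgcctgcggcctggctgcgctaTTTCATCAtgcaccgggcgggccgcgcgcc
Aars: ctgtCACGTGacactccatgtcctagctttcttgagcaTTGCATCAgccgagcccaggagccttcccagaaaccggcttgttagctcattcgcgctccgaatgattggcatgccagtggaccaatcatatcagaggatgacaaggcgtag
Kars: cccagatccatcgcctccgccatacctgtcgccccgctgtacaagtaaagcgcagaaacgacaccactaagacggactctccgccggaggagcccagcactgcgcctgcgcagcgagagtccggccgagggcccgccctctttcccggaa
Eprs: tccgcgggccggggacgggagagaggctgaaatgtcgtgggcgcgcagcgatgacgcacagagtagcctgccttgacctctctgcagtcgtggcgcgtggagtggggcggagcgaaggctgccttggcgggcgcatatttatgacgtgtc
Windows of 300 bases, 250 upstream and 50 downstream, were at hand for 26 of the 35 members. CACGTG stood in 5 of these 26 (Aars, Ears2, Farsb, Iars and Tars), against 7.15% of the 32851 windows of all genes. TGATGNAA also stood in 5 of the 26 (Aars, Gars, Iars, Tars and Yars), against 3.97% of all windows, and the matches of the 2 motifs do not overlap each other. For both motifs the members were counted by gene and the background by window, so these shares are not strictly alike. In Iars its TGATGNAA match lies downstream of the start and thus outside the line above. Of the 5 members that rose in all kept cells, 4 had a window and none of the 4 held either motif. Among the epithelial calls described below, Ears2 and Iars held CACGTG and Gars and Iars held TGATGNAA, 2 of 9 with a window for each motif, and of the 2 glia-like calls Iars held both. Aars, which holds both, was the cytosolic gene with the smallest fitted change. A match describes letters and not a bound site.

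Among the multisynthetase complex enzymes, 3 of 8 rose in all kept cells (Eprs, Kars and Qars), beside 9.35% of all genes tested. The median log2 change was 0.61 over the 8. Eprs, which charges both glutamic acid and proline, had 329 and 395 CPM in the Dox libraries, against 203 CPM in Control, which is 0.83 ± 0.17 higher on the log2 scale, where ± gives the standard error (adjusted p = 0.0478 by edgeR). Its call was lost with DESeq2's size factors (adjusted p = 0.0584), with total counts (0.0831) and without the Control-heavy fibroblast cluster described below (0.0665). By class, Eprs was called in 3 of 5. Epithelial cells held Eprs at 321 and 381 CPM in Dox, against 175 CPM in Control, and stromal cells held it at 379 and 432 CPM in Dox, against 190 CPM in Control. Glia-like cells held Eprs at 373 and 607 CPM in Dox, against 187 CPM in Control. Both Dox libraries lay above Control in each of these 3 classes. The stromal change of 1.09 was 0.37 without the same fibroblast cluster (adjusted p = 0.292), and the glia-like call was lost with DESeq2 (adjusted p = 0.0726). Supporting cell-like cells had Eprs at 187 and 238 CPM in Dox, against 134 CPM in Control, with an adjusted p of 0.205 by edgeR. Macrophage-like cells had Eprs at 182 and 277 CPM in Dox, against 195 CPM in Control, and there the groups overlapped.

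Kars had 64.6 and 68.5 CPM in the Dox libraries, against 28.3 CPM in Control, in all kept cells (log2 fold change 1.23 ± 0.16, adjusted p = 0.0257, edgeR). Epithelial cells showed Kars at 71.9 and 71.6 CPM in Dox, against 30.3 CPM in Control, and stromal cells at 55.9 and 59.9 CPM in Dox, against 26.1 CPM in Control. Kars rose in both of these classes. The stromal change of 1.15 was 0.60 without the same fibroblast cluster (adjusted p = 0.223), and its call was also lost with total counts (0.0561) and with DESeq2 (0.197). In supporting cell-like cells Kars was at 76.6 and 52.3 CPM in Dox, against 34.3 CPM in Control. Glia-like cells gave Kars at 55.0 and 39.2 CPM in Dox, against 32.7 CPM in Control, and macrophage-like cells at 30.1 and 42.2 CPM in Dox, against 33.3 CPM in Control. None of these last 3 differences was called.

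Qars, the glutamine enzyme, had 57.4 and 56.7 CPM in the Dox libraries, against 26.4 CPM in Control (log2 fold change 1.11 ± 0.16, adjusted p = 0.0272, edgeR). It was called under all 8 alternatives tried in all kept cells. Epithelial Qars was at 63.6 and 59.0 CPM in Dox, against 33.1 CPM in Control, and stromal Qars at 51.9 and 47.8 CPM in Dox, against 20.9 CPM in Control. Qars rose in both. Supporting cell-like Qars was at 78.4 and 61.8 CPM in Dox, against 49.9 CPM in Control. Glia-like Qars was at 38.5 and 41.1 CPM in Dox, against 23.8 CPM in Control, and macrophage-like Qars at 49.3 and 54.3 CPM in Dox, against 44.5 CPM in Control. Dox lay above Control in all of these without a call in the last 3 classes.

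Iars and Lars, the isoleucine and leucine enzymes of the complex, passed the test in single classes. Iars in all kept cells had 55.3 and 71.0 CPM in Dox, against 39.9 CPM in Control (log2 fold change 0.66 ± 0.22, adjusted p = 0.111, edgeR). Glia-like Iars rose, with 94.9 and 144 CPM in Dox, against 47.5 CPM in Control (16 UMIs), and epithelial Iars rose with 56.0 and 69.5 CPM in Dox, against 31.2 CPM in Control. Stromal Iars had 50.4 and 70.3 CPM in Dox, against 37.5 CPM in Control, and supporting cell-like Iars had 37.1 and 64.9 CPM in Dox, against 21.8 CPM (7 UMIs) in Control. Macrophage-like Iars ran the other way without passing the test, at 17.8 and 49.7 CPM in Dox, against 52.8 CPM in Control. Lars in all kept cells had 108 and 121 CPM in Dox, against 80.9 CPM in Control (log2 fold change 0.50 ± 0.15, adjusted p = 0.097, edgeR). Lars rose in epithelial cells, at 97.6 and 112 CPM in Dox, against 55.9 CPM in Control. Stromal Lars had 125 and 144 CPM in Dox, against 82.9 CPM in Control, and glia-like Lars had 159 and 205 CPM in Dox, against 98.0 CPM in Control. Neither passed the test. Supporting cell-like Lars, at 61.3 and 82.3 CPM in Dox, against 62.4 CPM in Control, overlapped, and macrophage-like Lars, at 86.2 and 113 CPM in Dox, against 97.3 CPM in Control, also overlapped.

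Mars, the methionine enzyme, had a log2 change of 0.19 ± 0.20 in all kept cells, with 18.6 and 21.1 CPM in Dox, against 17.5 CPM in Control (adjusted p = 0.538, edgeR). Epithelial Mars was at 18.6 and 20.2 CPM in Dox, against 16.8 CPM in Control, and stromal Mars at 18.1 and 19.9 CPM in Dox, against 15.0 CPM in Control. Glia-like Mars was at 39.9 and 59.7 CPM in Dox, against 26.7 CPM in Control. No class gave a call for Mars. In supporting cell-like cells it had 8.84 and 6.33 CPM in Dox, against 12.5 CPM in Control, from 15, 4 and 4 UMIs, and in macrophage-like cells 9.58 and 22.6 CPM in Dox, against 22.2 CPM in Control.

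Outside the complex, 2 of 12 free cytosolic enzymes rose in all kept cells, Farsa and Vars, beside 9.35% of all genes tested. The median log2 change was 0.43 over the 12. A difference between complex and free enzymes was not tested. Farsa, the catalytic subunit of the phenylalanine enzyme, had 42.2 and 45.8 CPM in the Dox libraries, against 20.6 CPM in Control (log2 fold change 1.10 ± 0.17, adjusted p = 0.03, edgeR). Its partner subunit Farsb had 30.6 and 36.2 CPM in Dox, against 23.9 CPM in Control, and was not called (0.48 ± 0.19, adjusted p = 0.155). Farsa rose in epithelial cells, with 41.3 and 43.6 CPM in Dox, against 16.8 CPM in Control, and in stromal cells, with 47.2 and 55.4 CPM in Dox, against 20.9 CPM in Control. Supporting cell-like Farsa had 46.5 and 49.1 CPM in Dox, against 12.5 CPM (4 UMIs) in Control, with an adjusted p of 0.0525. Glia-like Farsa had 56.4 and 61.6 CPM in Dox, against 32.7 CPM in Control, and macrophage-like Farsa had 30.1 CPM in each Dox library, against 25 CPM in Control. The last 3 were not called.

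Vars, the valine enzyme, had 61.7 and 80.7 CPM in the Dox libraries, against 30.3 CPM in Control (log2 fold change 1.23 ± 0.24, adjusted p = 0.0416, edgeR). Epithelial Vars rose, with 63.4 and 83.7 CPM in Dox, against 32.2 CPM in Control, and stromal Vars rose, with 65.6 and 74.2 CPM in Dox, against 30 CPM in Control. Glia-like Vars had 60.5 and 48.5 CPM in Dox, against 17.8 CPM (6 UMIs) in Control, with an adjusted p of 0.0602. Supporting cell-like Vars had 50.7 and 58.6 CPM in Dox, against 21.8 CPM (7 UMIs) in Control, and macrophage-like Vars had 24.6 and 40.7 CPM in Dox, against 30.6 CPM in Control. Dox lay above Control in all classes but the macrophage-like one, where the groups overlapped.

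Gars, which serves both compartments, had 91.0 and 105 CPM in the Dox libraries, against 69.1 CPM in Control (log2 fold change 0.51 ± 0.17, adjusted p = 0.107, edgeR). It rose in epithelial cells, with 82.4 and 98.4 CPM in Dox, against 44.7 CPM in Control. Glia-like Gars had 131 and 192 CPM in Dox, against 74.3 CPM in Control (adjusted p = 0.0578), and stromal Gars had 97.3 and 105 CPM in Dox, against 60.8 CPM in Control (adjusted p = 0.0646). Supporting cell-like Gars had 46.5 and 41.2 CPM in Dox, against 34.3 CPM in Control. Macrophage-like Gars had 46.5 and 112 CPM in Dox, against 55.6 CPM in Control, and overlapped.

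Aars, the alanine enzyme, did not differ detectably in all kept cells, with 59.1 and 56.6 CPM in Dox, against 56.7 CPM in Control (log2 fold change 0.03 ± 0.15, adjusted p = 0.905, edgeR). Its 3′ end overlaps Exosc6 on the same strand (GENCODE M21), so its counts are uncertain. Epithelial Aars had 58.0 and 55.8 CPM in Dox, against 47.5 CPM in Control, and stromal Aars had 41.7 and 42.4 CPM in Dox, against 35.1 CPM in Control. Supporting cell-like Aars had 25.3 and 31.7 CPM in Dox, against 18.7 CPM in Control. The glia-like values of Aars, 66.0 and 119 CPM in Dox against 80.2 CPM in Control, overlapped, and its macrophage-like values, 34.2 and 30.1 CPM in Dox against 41.7 CPM in Control, lay the other way. Wars, the tryptophan enzyme, had 27.0 and 29.5 CPM in Dox, against 24.6 CPM in Control, in all kept cells (0.20 ± 0.17, adjusted p = 0.441). Glia-like Wars had 31.6 and 57.9 CPM in Dox, against 11.9 CPM in Control, where 4 UMIs were counted, with an adjusted p of 0.0799. Epithelial Wars had 24.5 and 28.9 CPM in Dox, against 22.4 CPM in Control, and stromal Wars had 27.5 and 26.9 CPM in Dox, against 17.0 CPM in Control. Supporting cell-like Wars had 22.4 and 36.4 CPM in Dox, against 15.6 CPM in Control. Macrophage-like Wars had 24.6 and 25.6 CPM in Dox, against 38.9 CPM in Control. Neither gene was called in any class.

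The synthetases known as ATF4-responsive were 12 of the 20 cytosolic genes. In all kept cells 1 of these 12, Eprs, rose, with a median log2 change of 0.42, so 4 of the 5 calls lay among the other cytosolic genes. Both glia-like calls, Eprs and Iars, lay inside the ATF4 list, whose median there was 1.05, and so did 4 of the 8 cytosolic calls in epithelial cells, where its median was 0.45. The rest of the ATF4 program (23 genes of amino acid synthesis, transport and stress) had 6 members that rose and 2 that fell in all kept cells, with a median of 0.36. Asns, the asparagine synthetase, rose with 48.3 CPM in each Dox library, against 23.4 CPM in Control, while the cystine carrier Slc7a11 fell with 8.41 and 11.5 CPM in Dox, against 36.2 CPM in Control. By class, 12 of these genes rose and 1 fell in epithelial cells (median 1.26), 7 of 20 tested rose in glia-like cells (1.22) and 5 of 17 rose in supporting cell-like cells (1.46). In stromal cells 8 rose and 2 fell (0.30), and none of 19 was called in macrophage-like cells (0.46). Of all genes tested, 13.4%, 4.07%, 6.13%, 11.5% and 0.245% were called as higher in these classes, in the order given, and 9.35% in all kept cells. With total counts 5 rose and 3 fell in all kept cells (median 0.07). Then 7 rose and 1 fell in epithelial (0.96), 6 and 0 in glia-like (1.01), 4 and 1 in supporting cell-like (0.97) and 7 and 5 in stromal cells (-0.05).

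**Figure D2:**
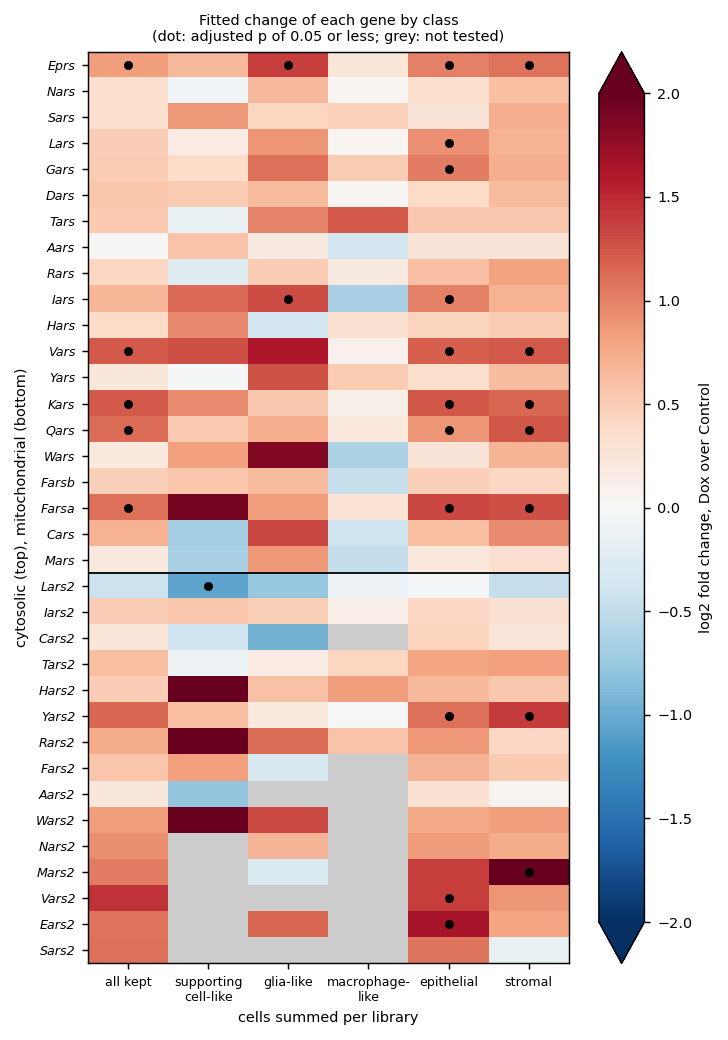
Colour gives the fitted log2 fold change, Dox over Control, of each synthetase gene (rows, cytosolic above the line and mitochondrial below it) in all kept cells and 5 classes (columns), with a dot at called genes and grey where the counts were too low to test. Dots number 11 in epithelial, 7 in stromal, 2 in glia-like, 1 in supporting cell-like and 0 in macrophage-like cells, and the darkest supporting cell-like squares rest on at most 1 Control UMI except that of Farsa.

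Epithelial cells gave the most calls. They comprised every cluster with at least 1000 CPM of summed epithelial markers in each library with at least 3 cells, a threshold set with the data in view, with 373 and 703 cells in the Dox libraries, against 149 in Control. A heat shock-led cluster left out by it held 3.77% and 3.11% of the Dox cells, against 2.75% of the Control cells. Of 35 members 11 rose and none fell, 8 cytosolic (Eprs, Farsa, Gars, Iars, Kars, Lars, Qars and Vars) and 3 mitochondrial (Ears2, Vars2 and Yars2). That is 31.4% of the members, beside 22.4% of 13730 genes tested, 13.4% higher and 8.99% lower. The makeup of the class differed between the groups. Median depth was 15677 and 31956 UMIs per cell in Dox, against 1167 UMIs in Control, and summed Schwann or satellite glia markers stood at 342 and 353 CPM in Dox, against 2274 CPM in Control, with 10 and 11 of 14 markers detected in Dox and 10 in Control. Their part in the result was not tested. The class includes the supporting cell-like cells, and without them 13 members were called, the same 11 with Rars and Mars2. Without the clusters that held fewer than 3 cells in a library, 8 members were called and the cytosolic median was 0.42 rather than 0.57. The share of all genes called is given for neither of these fits. Within the Epyc-led cluster alone (49 and 81 cells in Dox, against 13 in Control) 3 members rose, Eprs, Iars and Lars, beside 11.7% of 10597 genes, and Lars had 83.6 and 92.3 CPM in Dox, against 24.7 CPM in Control. Within the Gpx3- and Vmo1-led cluster alone (20 and 89 cells in Dox, against 16 in Control) Eprs, Kars and Qars rose, beside 16.3% of 9910 genes, and the cytosolic median was 0.18. Eprs was called in both. With total counts 3 members were called in the class, Eprs, Farsa and Kars, and the share of higher calls among all genes was 34.2%, against 59.9% with TMM.

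Stromal cells, the fibroblast-like and pericyte-like clusters, had higher cytosolic levels in Dox, and the calls were lost once a single cluster was left out. Their cytosolic sum was 1641 and 1789 CPM in Dox, against 982 CPM in Control, and 7 of 35 members rose (20%), namely Eprs, Farsa, Kars, Qars, Vars, Mars2 and Yars2, beside 20.8% of 11974 genes, 11.5% higher and 9.25% lower. An Efemp1- and Prg4-led fibroblast-like cluster held 1 and 1 cells in Dox, against 81 of the 124 stromal cells in Control, and had an unscaled cytosolic sum of 875 CPM there. Summed fibroblast or fibrocyte markers were 1476 and 1979 CPM in Dox, against 11672 CPM in Control. Without that cluster, the class gave 0 calls by edgeR, with 43 Control cells left, and a cytosolic median of -0.07. The changes of Qars (1.06), Vars (1.14), Mars2 (2.81) and Yars2 (1.04) were above 1 on the log2 scale without the Efemp1-led cluster. Those of Eprs (0.37), Kars (0.60) and Farsa (0.76) were smaller than with it. The cells left differed in makeup too. An Itga1- and Rgs5-led pericyte-like cluster held 92 and 64 cells in Dox, against 6 in Control. It gave 3678736 and 2291088 of the 4134200 and 5295417 UMIs left in Dox, against 42741 of 559459 in Control. A Trf- and Coch-led cluster gave 512760 of those Control UMIs. The part of this makeup in the changes was not tested. Within the Trf- and Coch-led fibrocyte-like cluster alone (14 and 86 cells in Dox, against 32 in Control) the cytosolic sum was 1643 and 2008 CPM in Dox, against 1962 CPM in Control. There 0 of 25 members tested were called, beside 1.93% of 7467 genes, and the cytosolic median was -0.25. With total counts 4 members rose and Lars2 fell in the class, and 30.3% of called genes were higher, against 55.5% with TMM.

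Glia-like cells (39 and 52 in Dox, against 37 in Control) had the largest cytosolic sum of the 5 classes in each library, 2076 and 2691 CPM in Dox, against 1319 CPM in Control. Eprs (log2 fold change 1.38 ± 0.35, adjusted p = 0.0107) and Iars (1.31 ± 0.41, adjusted p = 0.0434) rose by edgeR, 2 of 32 members tested (6.25%), beside 8.37% of 7721 genes, 4.07% higher and 4.3% lower. The cytosolic median was 0.85 and 19 of 20 changes were positive, whereas DESeq2 called neither gene (adjusted p = 0.0726 for Eprs and 0.520 for Iars). With total counts Eprs rose, Lars2 fell, and the cytosolic median was 0.64. The glia's own markers summed to 4037 and 6012 CPM in Dox, against 14636 CPM in Control, with 12 of 14 detected in every library. Epithelial markers were at 16 and 45.1 CPM in Dox, against 6.40 CPM in Control.

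Supporting cell-like cells gave no cytosolic call by edgeR, and DESeq2 called 0. By edgeR 4 of 20 cytosolic genes had an unadjusted p under 0.05, beside 1878 of the 8320 genes tested, so the members did not stand out. In the class as a whole 1 of 30 members tested was called (3.33%), Lars2, beside 9.21% of 8320 genes, 6.13% higher and 3.08% lower. The cytosolic sum was 1311 and 1363 CPM in Dox, against 952 CPM in Control, after TMM scaling, and 1124 and 1226 CPM in Dox, against 1167 CPM in Control, unscaled. Total count scaling moved the median of all genes in this class to -0.46 and the cytosolic median to 0.05, from 0.53 with TMM, and 25.9% of called genes were then higher, against 66.6%. Rars2 had 22 and 12 UMIs in Dox and 0 in Control, at least 1.56-fold higher over the pooled Dox libraries against 3 Control counts (13 and 19 CPM in Dox), and Hars2 had 38 and 10 UMIs in Dox and 1 in Control. Median depth in the class was 8212 and 14149 UMIs in Dox, against 1590 UMIs in Control.

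Macrophage-like cells (50 and 29 in Dox, against 23 in Control) gave 0 calls by edgeR and 0 by DESeq2 among 26 members tested. Of 7747 genes 0.568% were called by edgeR, 0.245% higher and 0.323% lower. No member had an unadjusted p under 0.05 by edgeR, beside 549 of the 7747 genes. The cytosolic sum was 1037 and 1434 CPM in Dox, against 1137 CPM in Control, so the groups overlapped. Of the transgene readouts Myc was not called, with 24.6 and 42.2 CPM in Dox, against 52.8 CPM in Control. It was not called in stromal cells either, with 90.7 and 45.7 CPM in Dox, against 46.6 CPM in Control. Macrophage-like Notch1 was not called, with 175 and 161 CPM in Dox, against 66.7 CPM in Control. The class was mixed: neutrophil markers summed to 22362 and 15024 CPM in Dox, against 13857 CPM in Control (9 and 10 of 10 detected in Dox, 8 in Control), beside macrophage markers at 24574 and 10229 CPM in Dox, against 22773 CPM in Control (14 of 14 in each). Epithelial markers summed to 14.5 and 625 CPM in Dox, against 8.39 CPM in Control. Their part in these values was not tested. A test of the difference between classes by edgeR, with library as a block, called 0 of 33 members in any comparison. The smallest adjusted p was 0.846 for glia-like minus supporting cell-like, 0.440 for macrophage-like minus glia-like and 0.451 for macrophage-like minus supporting cell-like cells. Of 10663 genes tested, 0.0844%, 0.169% and 0.169% were called, in the order given. Unadjusted p under 0.05 numbered 1, 3 and 1 among the 33 members, beside 630, 767 and 923 among the 10663 genes. For Iars the macrophage-like minus glia-like difference in log2 change was -2.01 ± 0.68.

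The 18 members not named for their values were all tested in all kept cells, with log2 changes between 0.23 and 1.10, none called (smallest adjusted p 0.0655, for Dars, the aspartate enzyme). Their changes ran between 0.27 and 1.07 in epithelial cells and between -0.15 and 0.95 in stromal cells. Among glia-like cells they ran between -0.95 and 1.33, with 14 of 17 tested positive, and in macrophage-like cells 11 of 13 were positive. Supporting cell-like cells had 9 of 16 positive, between -0.70 and the value of Rars2, for which Control had 0 UMIs.

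Of the 15 mitochondrial enzymes, 14 had higher levels in both Dox libraries in all kept cells, and Lars2 had lower ones. This placement was not counted over all genes. Without Lars2, the mitochondrial sum was 236 and 273 CPM in Dox, against 159 CPM in Control, a ratio of 1.48 and 1.71, while the cytosolic ratio was 1.41 and 1.56. In 14 of 15 pairs of a mitochondrial enzyme with its cytosolic counterpart both changes were positive, and in 11 of 15 the mitochondrial change was the larger. Total count scaling left 12 of 15 mitochondrial changes positive. Vars2, the mitochondrial valine enzyme, had the largest fitted change in all kept cells, with 10.7 and 14.4 CPM in Dox, against 4.61 CPM in Control (log2 fold change 1.45 ± 0.34, adjusted p = 0.0576, edgeR). It rose in epithelial cells, with 13.4 and 15.6 CPM in Dox, against 5.59 CPM in Control, where 12 UMIs were counted. Stromal Vars2 had 6.03 and 9.84 CPM in Dox, against 4.34 CPM in Control. The other classes were too sparse to test, with 13 and 9 UMIs in Dox against 1 in Control in supporting cell-like cells, 4 and 7 in Dox against 1 in Control in glia-like cells, and 2 and 6 in Dox against 0 in Control in macrophage-like cells.

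Yars2, the mitochondrial tyrosine enzyme, had 24.2 and 31.2 CPM in the Dox libraries, against 12.5 CPM in Control (log2 fold change 1.15 ± 0.25, adjusted p = 0.0524, edgeR). It rose in epithelial cells, with 25.8 and 32.2 CPM in Dox, against 13.5 CPM in Control, and in stromal cells, with 23.9 and 28.3 CPM in Dox, against 9.87 CPM in Control. The epithelial change turned to -0.49 with cells thinned to 1000 UMIs and to -0.30 in the Epyc-led cluster alone. Supporting cell-like Yars2 had 21.8 and 26.9 CPM in Dox, against 15.6 CPM in Control, and glia-like Yars2 had 22 and 18.7 CPM in Dox, against 17.8 CPM in Control. Macrophage-like Yars2 overlapped, with 9.58 and 18.1 CPM in Dox, against 13.9 CPM in Control.

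Ears2 and Mars2, for glutamate and methionine, were sparse. Ears2 had 7.41 and 9.38 CPM in the Dox libraries, against 3.96 CPM in Control (1.09 ± 0.34, adjusted p = 0.1, edgeR), and rose in epithelial cells with 101 and 234 UMIs in Dox, against 6 UMIs in Control (7.89 and 9.60 CPM in Dox, against 2.80 CPM). Stromal Ears2 had 5.51 and 6.77 CPM in Dox, against 3.55 CPM in Control, and glia-like Ears2 had 16.5 and 24.3 CPM in Dox, against 8.91 CPM in Control. Supporting cell-like and macrophage-like Ears2 was too low to test, with 13 and 7 UMIs in Dox against 1 in Control and 2 and 5 UMIs in Dox against 3 in Control. Mars2 had 9.89 and 10.4 CPM in Dox, against 4.94 CPM in Control (1.04 ± 0.27, adjusted p = 0.0712). It rose in stromal cells, with 51 and 47 UMIs in Dox, against 7 UMIs in Control (13.4 and 9.64 CPM in Dox, against 2.76 CPM). Epithelial Mars2 had 9.38 and 10.0 CPM in Dox, against 3.73 CPM in Control (adjusted p = 0.0502). Glia-like Mars2 overlapped, with 9.62 and 26.1 CPM in Dox, against 20.8 CPM in Control. Supporting cell-like cells had 13 and 4 Mars2 UMIs in Dox, against 2 in Control, and macrophage-like cells had 3 and 2 in Dox, against 0 in Control.

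Aars2, the mitochondrial alanine enzyme, had the smallest positive estimate among the mitochondrial genes, with 8.41 and 9.22 CPM in Dox, against 7.58 CPM in Control (0.22 ± 0.26, adjusted p = 0.583, edgeR). Epithelial Aars2 had 8.83 and 9.60 CPM in Dox, against 7.46 CPM in Control, and stromal Aars2 had 6.56 and 7.38 CPM in Dox, against 6.71 CPM in Control. The remaining classes held few molecules of it. Supporting cell-like cells had 13 and 4 UMIs in Dox, against 4 in Control, glia-like cells had 10 and 7 in Dox, against 3 in Control, and macrophage-like cells had 4 and 3 in Dox, against 4 in Control.

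Lars2, the mitochondrial leucine enzyme, ran against the rest of the set. In all kept cells it had 231 and 183 CPM in the Dox libraries, against 279 CPM in Control, and the change of -0.43 ± 0.19 was not called (adjusted p = 0.182, edgeR). Lars2 UMIs made up 49.5% and 40.2% of all mitochondrial synthetase UMIs in Dox, against 63.6% in Control, so that the full mitochondrial sum, 467 and 456 CPM in Dox, against 438 CPM in Control, was nearly level. In supporting cell-like cells Lars2 fell, with 143 and 200 CPM in Dox, against 350 CPM in Control (log2 fold change -1.05 ± 0.27, adjusted p = 0.0195). Both Dox libraries lay below Control there, and DESeq2 did not call the gene (adjusted p = 0.149). The markers of that class were lower too, with supporting cell markers at 2349 and 2707 CPM in Dox, against 4484 CPM in Control (17 and 18 of 18 detected in Dox, 14 in Control). Epithelial markers there summed to 4917 and 3681 CPM in Dox, against 7851 CPM in Control (13 and 16 of 18 in Dox, 14 in Control), and glia markers to 350 and 278 CPM in Dox, against 624 CPM in Control (9 and 8 of 14 in Dox, 7 in Control). Their part in the Lars2 result was not tested. Glia-like Lars2 had 392 and 381 CPM in Dox, against 653 CPM in Control (adjusted p = 0.108), and stromal Lars2 had 242 and 214 CPM in Dox, against 315 CPM in Control (adjusted p = 0.159). The groups overlapped in macrophage-like cells, with 237 and 121 CPM in Dox, against 195 CPM in Control, and in epithelial cells, with 216 and 164 CPM in Dox, against 195 CPM in Control. The difference of the Lars2 change between glia-like and supporting cell-like cells was 0.31 ± 0.55 on the log2 scale.

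**Figure D3:**
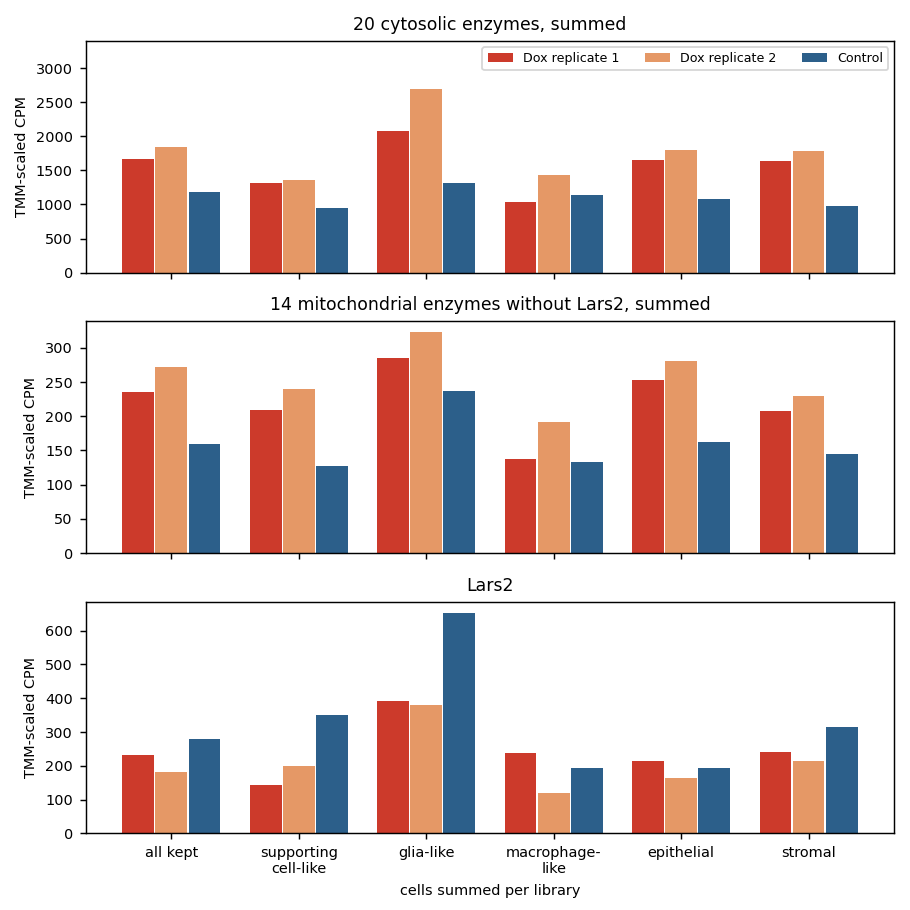
Bars give TMM-scaled CPM in Dox replicate 1, Dox replicate 2 and Control for the 20 cytosolic enzymes summed (top), the 14 mitochondrial enzymes without Lars2 summed (middle) and Lars2 (bottom), in all kept cells and 5 classes. Dox bars stand above Control in the upper panels outside macrophage-like cells, although the unscaled cytosolic sums of supporting cell-like cells overlap, and the tallest Lars2 bar is Control glia-like cells at 653 CPM.

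The level of Lars2 also followed the kind of cell. By cluster it was highest in the heat shock-led one, at 1311 and 1442 CPM in Dox, against 1614 CPM in Control (unscaled). That cluster held 24 and 31 cells in Dox, against 10 in Control. In Dox replicate 1 cells of little Malat1 had 460 CPM (unscaled; 95% Poisson interval 430 to 492), against 194 CPM in its other cells, and in Dox replicate 2 the values were 326 CPM (298 to 356) and 162 CPM. In Control they were 464 CPM (390 to 547) and 310 CPM. Intervals cover counting error alone. Cells under 2000 UMIs had 1747 and 1703 CPM of Lars2 in Dox, against 727 CPM in Control, and deeper cells had 209 and 161 CPM in Dox, against 309 CPM in Control. The other mitochondrial enzymes were not higher in cells of little Malat1, with 170 and 221 CPM in Dox, against 95.4 CPM in Control, beside 228 and 253 CPM in Dox and 187 CPM in Control for the other cells. Among supporting cell-like cells those of little Malat1 had 517 and 410 CPM of Lars2 in Dox, against 324 CPM in Control, where 12 UMIs gave an interval of 167 to 565 CPM that holds both Dox values. The other supporting cell-like cells had 60.7 (49.6 to 73.6) and 121 (94.1 to 154) CPM in Dox, against 446 CPM (363 to 542) in Control. Without cells of little Malat1 the fitted change in that class was -1.89 (adjusted p = 0.076), and with cells thinned to 1000 UMIs it was -0.43 (adjusted p = 0.622).

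**Figure D4:**
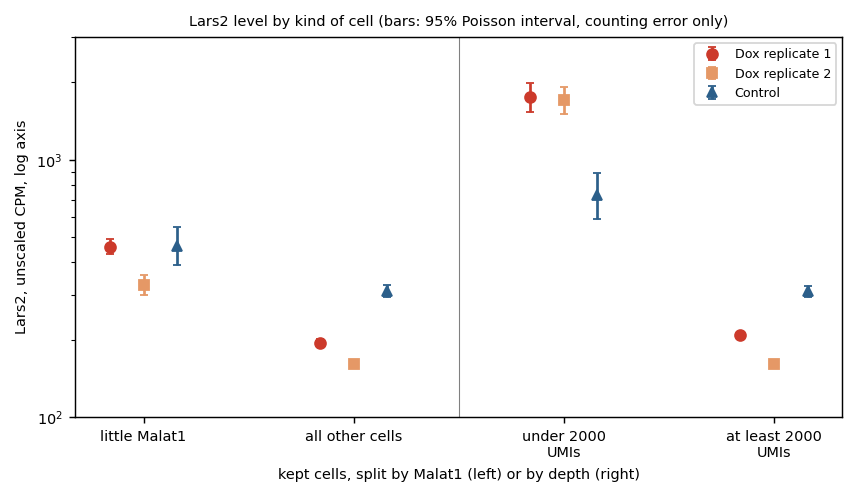
Points give unscaled CPM of Lars2 (log axis) in Dox replicate 1, Dox replicate 2 and Control, for kept cells split by Malat1 (left) or at 2000 UMIs (right), with 95% Poisson intervals. In every library, cells of little Malat1 and cells of low depth lie above the cells they are set beside, by the widest margin for the shallow Dox cells at 1747 and 1703 CPM.

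Across clusters, the neuron-like cluster, marked by Stmn2, Nefl, Nefm, Snap25 and Gap43, had the highest summed cytosolic level in each library. With 11 and 10 cells in Dox, against 6 cells in Control, it had 4112 and 3631 CPM in Dox, against 3211 CPM in Control (unscaled). Against all other cells of the same library, 8 cytosolic genes were at least 2-fold higher in every library, namely Aars, Cars, Gars, Lars, Nars, Sars, Wars and Yars, all of them on the ATF4-responsive list. Nars, the asparagine enzyme, stood at 986 and 785 CPM in neuron-like Dox cells, against 620 CPM in those of Control, and at 180, 196 and 169 CPM in the other cells of the same libraries. Yars was 5.98- and 6.68-fold higher than in the other cells in Dox, and 5.12-fold in Control. Qars was lower in every library, at 10.6 and 12.4 CPM in neuron-like Dox cells, against 26.1 CPM in neuron-like Control cells, from 4, 4 and 8 UMIs. No mitochondrial gene was at least 2-fold higher in every library, and Lars2 was lower in every library. Sars2 had 0 UMIs in neuron-like cells of Dox replicate 1 and Control. Cells are not replicates and clusters are built from the same counts, so these levels are a description.

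**Figure D5:**
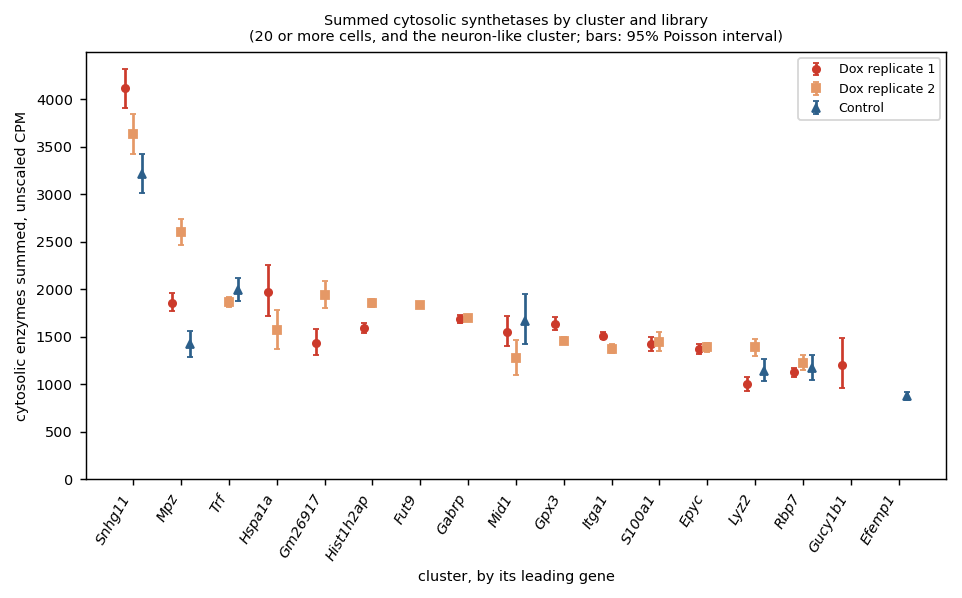
Points give the unscaled summed CPM of the 20 cytosolic enzymes in each cluster, named by its leading gene, in Dox replicate 1, Dox replicate 2 and Control, with 95% Poisson intervals, for clusters of 20 or more cells in a library and for the smaller neuron-like cluster (Snhg11). The neuron-like cluster lies between 3211 and 4112 CPM, above all others, and the Control fibroblast-like cluster led by Efemp1 is lowest at 875 CPM.

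Other genes of the tRNA pathway were mostly higher in Dox in all kept cells. The shares below stand beside 9.35% of all genes tested called as higher and 7.82% as lower. Of the 6 genes of the synthetase complex scaffold and the mitochondrial glutamine amidotransferase 3 rose, all scaffold members, with a median log2 change of 0.95. Eef1e1 had 83.7 and 94.0 CPM in Dox, against 28.2 CPM in Control, and rose in all classes but the macrophage-like one, where it had 49.3 and 64.8 CPM in Dox, against 55.6 CPM in Control. Aimp1 had 227 and 243 CPM in Dox, against 124 CPM in Control, and Aimp2 had 27.9 and 30.6 CPM in Dox, against 14 CPM in Control. The amidotransferase subunits Qrsl1, Gatb and Gatc were not called. Of 20 genes of tRNA processing and export 6 rose, with Trnt1, which adds the CCA end, at 84.7 and 90.4 CPM in Dox, against 38.2 CPM in Control. Of 22 genes of RNA polymerase III and its factors 7 rose, with Polr3g at 25.6 and 30.9 CPM in Dox, against 8.57 CPM in Control. Of 25 tested tRNA modification genes 7 rose, with the pseudouridine synthase Pus7 at 73.2 and 91.6 CPM in Dox, against 17.1 CPM in Control. No gene of these 4 lists fell by the test, and with total counts 2, 3, 4 and 4 genes rose, in the order given. All 6 cytosolic elongation factors rose, with a median of 1.27, whereas none of 4 mitochondrial ones was called. Of 12 nucleolar MYC-responsive genes 10 rose, with a median of 1.86, and of 15 genes of handling and dissociation 2 rose and 2 fell, with a median of -0.25. With total counts all 6 elongation factors rose, 10 nucleolar genes rose and 1 fell, and 1 handling gene rose and 6 fell.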

How the data were processed

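Sensory epithelium cells of cochlear explants were dissociated with trypsin and run on the 10x 3′ platform, per the labels' protocols. The deposited matrices hold UMI counts per gene and barcode made by the authors with Cell Ranger 5.0 on mm10, per the submitters' processing notes, while the matrix headers name software version 3.1.0. The sources used here do not say whether intronic reads count. No file holds normalized values, so all scaling described is from this re-analysis.

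Barcodes with 200 or more genes and a mitochondrial UMI share up to 20% were kept, 1996 of 2395. Doublets were neither called nor removed. Clustering used scanpy 1.11.5 (2000 variable genes, 30 components, 15 neighbours, Leiden resolution 1) and gave 19 clusters, of which 10 were named from at least 3 listed markers among their 25 leading genes. Cells of little Malat1 had a Malat1 share under 0.2 times their library's median. UMI counts were summed per library and class and tested, Dox against Control, with edgeR 4.0.16 (R 4.3.3): TMM scaling, filterByExpr, the quasi-likelihood F test and Benjamini-Hochberg adjustment over all genes tested. DESeq2 1.42.0 was an alternative. Differences between classes were tested in one model with library as a block. Scripts were tested on simulated data with 200 changed genes. CPM of clusters, of neuron-like cells and of cells split by Malat1 or depth are unscaled.

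Depth was 20309102 and 33385927 UMIs in the Dox libraries, against 5436731 UMIs in Control, so low genes of the Control library limit the precision. Members called in any class, the 5 largest and 5 smallest fold changes in all kept cells, Kars and Gars were named with values. Members and lists were chosen with earlier results of these data known. Positions are from GENCODE M21 (GRCm38) and promoters from RefSeq (GRCm38.p6). Other scalings, filters, resolutions and left-out libraries were tried as alternatives.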

Additional observations from a re-analysis of the deposited data

How the results depend on the processing

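Counts of members called depended on the processing. In all kept cells 5 became 3 with total counts and 19 with no filter on low counts. In supporting cell-like cells 1 became 3 with no filter on low counts, 2 with a stricter cell filter or at resolution 2, and 0 with DESeq2's Wald test, without cells of little Malat1, thinned to 1000 UMIs or at resolution 0.5. In glia-like cells 2 became 5 with DESeq2's size factors or no filter on low counts, 4 with the stricter cell filter, 1 when thinned (Lars2, lower) and 0 with the Wald test. Epithelial calls numbered 3 with total counts, 6 with the Wald test, 2 when thinned, and 3 in either the Epyc-led or the Gpx3-led cluster alone, beside 11. Stromal calls numbered 13 with no filter on low counts, 1 with the Wald test, and 0 when thinned, without the Efemp1-led cluster or in the Coch-led cluster alone, beside 7. Macrophage-like calls were 0 throughout. Calls among all genes moved too. In all kept cells 1443 genes were higher and 1207 lower with TMM, against 883 and 2030 with total counts. In epithelial cells 1846 and 1235 became 1201 and 2311 with total counts. In glia-like cells 314 and 332 became 422 and 405 with DESeq2's size factors. Beyond scalings and single clusters, calls among all genes are not given here, so those member counts lack that share. The cause of these shifts was not tested, beyond the smaller sums that thinning and single clusters leave by construction.

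Single calls that every alternative retained were Qars in all kept cells (8 of 8) and Eprs in epithelial cells (13 of 13). Farsa and Kars in all kept cells were lost when thinned (adjusted p = 0.332 and 0.373, edgeR) and Vars with total counts. Iars in glia-like cells was retained in 3 of 8. Yars2 in epithelial cells turned to -0.49 when thinned (adjusted p = 0.850) and to -0.30 in the Epyc-led cluster alone (0.741).

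Leaving out Dox replicate 1 or 2 leaves no residual degrees of freedom, so values carry no test. The cytosolic median was then 0.65 or 0.41 in all kept cells, 0.58 or 0.47 in supporting cell-like, 0.97 or 0.73 in glia-like, 0.27 or -0.15 in macrophage-like, 0.67 or 0.39 in epithelial and 0.77 or 0.65 in stromal cells. The single-cluster fits, the fits without the Efemp1-led or the supporting cell-like cluster and the fit on clusters with cells in every library were added after seeing the data. No paired analysis was possible because Control is a single library with no replicate number.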
